A study of Mus musculus with 18 samples.

Results

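Heat shock factor 1, Hsf1, and 9 of its classic cytosolic chaperone targets were followed in mouse macrophages loaded with oxidized low-density lipoprotein (oxLDL). The members were the rows of the gene table named Hsf1, Hspa8, Hspa1a, Hspa1b, Hsph1, Dnajb1, Dnaja1, Hsp90aa1, Hspb1 and Bag3. All 10 were found among the 18668 symbols of the table, and all 10 were among the 12838 genes that reached 0.1 RPKM (reads scaled to gene length and library size) in at least 3 libraries. At 60 µg/ml oxLDL the 7 abundant members stayed within a narrow band in both genotypes, while the inducible HSP70 gene Hspa1a was called higher in 1 genotype, a call carried by 2 of its 3 animals and lost when it was summed with its near-identical copy Hspa1b (log2 change 0.89, limma adjusted p = 0.253).

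Bone marrow cells of C57BL6 mice were grown into macrophages (BMDM) with M-CSF. They were either Apoe-/- or Apoe-/-/Treml4-/- double-knockout (DKO), so that apolipoprotein E was deleted in all groups, controls included, and the myeloid receptor gene Treml4 in the DKO groups only. Cells of each genotype received vehicle (untreated), 10 µg/ml oxLDL (oxLDL 10) or 60 µg/ml oxLDL (oxLDL 60), for 16 h per the series' design text, while the methods of the study give a longer exposure. Each of the 6 groups had 3 replicates, which made 18 libraries. A treatment label also speaks of LPS at other times, and the labels list more than 1 sequencing setup. The methods of the study describe LPS as a separate experiment, and the exposure time of these libraries could not be settled.

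Proteins that unfold in the cytosol are held and refolded by chaperones. HSP70 proteins bind exposed stretches of a client with the help of J-domain partners (HSP40), which start their ATP cycle, and of exchange factors such as HSP110 and BAG proteins, which end it. HSP90 takes over clients that need later folding steps, and small heat shock proteins hold unfolded clients without ATP. When unfolded protein accumulates, HSF1 is set free from chaperones, forms trimers and binds heat shock elements, inverted repeats of the letters GAA, in the promoters of these genes. HSF1 itself is controlled mainly as a protein, so its transcript need not change in a heat shock response. Macrophages that take up oxLDL are known to meet oxidative and protein-damage stress, which makes these genes a natural readout.

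The inducible pair Hspa1a and Hspa1b is shown first, because the 2 copies are so alike that their values must be read together. RefSeq promoters (GRCm38.p6) were found for 7 of the 10 members, Hspa1a, Hspa1b, Hsph1, Dnajb1, Dnaja1, Hspb1 and Bag3. Over the 250 bases before the start site the promoters of the pair were 98.8% identical, with 3 differences, C44T, T47C and T249G (the base of Hspa1a, the position counted from 1 at the 5′ end of the stretch, then the base of Hspa1b). Both genes lie on the minus strand of chromosome 17, and the sequences are given 5′ to 3′ with the differing bases in capitals, for Hspa1a from chr17:34972157-34972406 and for Hspa1b from chr17:34959239-34959488.
Hspa1a: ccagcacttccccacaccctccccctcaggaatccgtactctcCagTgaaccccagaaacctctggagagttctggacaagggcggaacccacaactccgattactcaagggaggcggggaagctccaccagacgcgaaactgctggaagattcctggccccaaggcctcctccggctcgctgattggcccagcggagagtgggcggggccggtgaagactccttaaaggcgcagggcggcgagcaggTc
Hspa1b: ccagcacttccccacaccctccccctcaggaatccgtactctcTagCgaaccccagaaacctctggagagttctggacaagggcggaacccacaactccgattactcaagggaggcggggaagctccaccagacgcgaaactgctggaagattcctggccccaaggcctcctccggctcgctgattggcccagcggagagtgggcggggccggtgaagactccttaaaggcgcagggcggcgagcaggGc

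The transcripts of the pair shared long stretches as well. Of all 150-base stretches of the annotated Hspa1a transcript (2967 bases), 38.1% occurred letter for letter in Hspa1b, and of its 50-base stretches 58.8% did. No 50-base stretch was shared with Hspa8, the constitutive HSP70. A read from a shared stretch cannot be assigned to 1 copy by sequence, and how such reads were counted is not given in the sources used here. The RPKM of 6 members, Hsf1, Hspb1, Bag3, Dnajb1, Hsph1 and Hsp90aa1, came out as whole reads at 1 gene length, with a mean distance to whole reads below 0.05. For Hspa1a, Hspa1b and Dnaja1 no length did so, and Hspa8 had too many reads to judge.

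The promoters of the members were searched for pairs of heat shock element units, GAANNTTC or TTCNNGAA. Each of these reads the same on both strands, and overlapping matches were counted. The letters were present between 250 bases before and 50 bases after the start in 6 of the 7 members with a promoter, all but Dnajb1, against 17.0% of 27025 genes. The stretches below carry the matches of Hspa1a, Hspa1b, Hspb1, Hsph1 and Dnaja1 that lie before the start site, with the matching letters in capitals, and show where the factor's recognition letters stand in these genes.
Hspa1a, chr17:34972242-34972271, minus strand, match from base -104: cgaaactgctgGAAGATTCctggccccaag
Hspa1b, chr17:34959324-34959353, minus strand, match from base -104: cgaaactgctgGAAGATTCctggccccaag
Hspb1, chr5:135887791-135887820, plus strand, match from base -117: cttcaacaagaGAAGTTTCcagatgggggc
Hspb1, chr5:135887811-135887840, plus strand, match from base -97: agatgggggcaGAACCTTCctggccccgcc
Hsph1, chr5:149636351-149636380, minus strand, match from base -33: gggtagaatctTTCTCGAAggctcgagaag
Dnaja1, chr4:40722333-40722362, plus strand, match from base -124: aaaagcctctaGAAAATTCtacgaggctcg
In Bag3 the match began 43 bases into the transcript. Dnaja1 held it at 1 of 3 listed starts. The longer run of 3 units in alternating direction was present in Hsph1 alone among the 7 members and in 0.662% of all genes. In Hsph1 this run lay after the start site, from base 37 of 1 listed start and base 16 of the other, and not in the stretch shown. The match in the stretch shown begins at base -54 from that other start. A match describes letters in this window and was not tested for binding.

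The 18 libraries held 39.7 M to 54.2 M reads as recovered from the steps of the RPKM values, so 3 reads over 1 kb of transcript corresponded to 0.0553 to 0.0755 RPKM. Treml4 stood at 1.86 to 8.39 RPKM in the Apoe-/- libraries and at 0.0116 RPKM or less in the DKO libraries. All 6 macrophage markers were present, with a summed level of 1461 to 1874 RPKM. Markers of lymphocytes, mast cells and erythroid cells each summed to less than 0.5 RPKM in every library, and stromal and neutrophil markers were present at levels given further below. Replicate numbers marked the same animal within a genotype, as judged from the values. Xist was at 7.25 to 14.5 RPKM in the 6 libraries of 2 animals, Apoe-/- replicate 2 and DKO replicate 3, and at 0.0690 RPKM or less in the other 12 libraries. The Y-linked genes Ddx3y, Eif2s3y, Kdm5d and Uty summed to 0.0515 RPKM or less in those 6 libraries and to 41.7 to 63.4 RPKM in the other 12. This is the pattern of female cells in those 2 animals and of male cells in the others. The changes of Hspa1a and Hspa1b between groups are therefore also given without those 2 animals where that altered a call.

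The members spanned a wide range of levels. Hspa8, the constitutive HSP70 that folds nascent chains and drives clathrin uncoating, averaged 985 RPKM over the 18 libraries and stood above 99.8% of the genes tested. Hsp90aa1, the stress-responsive HSP90, averaged 216 RPKM and stood above 98.1%. Dnaja1, a J-domain partner of HSP70, averaged 31.1 RPKM. Hsph1, the HSP110 exchange factor, averaged 14.8 RPKM and Dnajb1, the J-domain protein of the classic heat shock response, 12.0 RPKM, and their ranges overlapped. Hsf1 averaged 7.85 RPKM and Bag3, an exchange factor that hands clients to autophagy, 6.94 RPKM, again with overlapping ranges. The lowest were Hspa1b at 1.14 RPKM, Hspa1a at 1.08 RPKM and Hspb1, the small heat shock protein HSP27, at 0.611 RPKM, and none of these 3 could be ranked against the next beyond the spread of its libraries.

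The 3 low members were also the variable ones. For the 7 abundant members the highest library exceeded the lowest by 1.26-fold (Dnaja1) to 1.70-fold (Hsph1). For Hspa1b this ratio was 7.45, for Hspa1a 11.8 and for Hspb1 36.6, the last against a library with 2 reads.

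**Figure D1:**
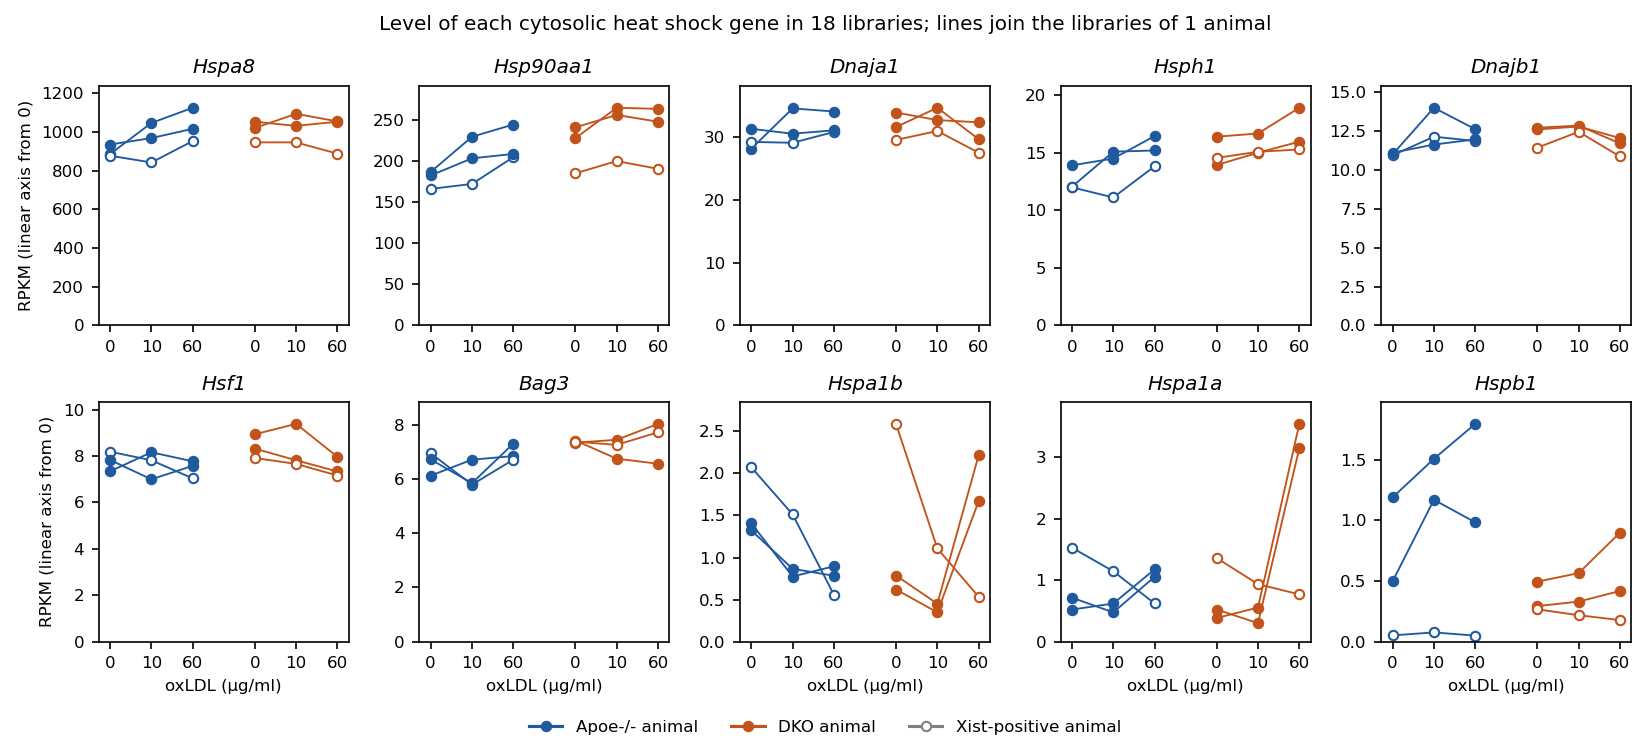
RPKM of each member (vertical axes, linear and starting at 0) at 0, 10 and 60 µg/ml oxLDL for each of 3 Apoe-/- animals (blue) and 3 DKO animals (orange), with open circles for the 2 Xist-positive animals. The abundant members run nearly flat, Hspa1a and Hspa1b move steeply and differently between animals, and the lines of Hspb1 lie apart by animal.

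Whether oxLDL raised the constitutive chaperones was the first comparison. In Apoe-/- cells none of the 10 members was called at oxLDL 60 (limma, adjusted p under 0.05 and at least 1.4-fold), where 13.9% of all genes tested were. Of the members 1, Hsph1, had an unadjusted p under 0.05, beside 5157 of the 12838 genes. With the animal as a block 5 members did, beside 6154 genes, and none was called. The median change of the members was 0.13 on the log2(RPKM + 0.1) scale, against 0.06 over all genes tested. In DKO cells 1 of the 10 members was called at oxLDL 60, Hspa1a, where 12.2% of all genes were, and the medians were 0.05 and -0.06. An unadjusted p under 0.05 was found for 1 member in DKO, beside 4631 genes, and for 3 members with the animal block, beside 5684 genes. The values of the 3 oxLDL 60 libraries lay clear of the 3 untreated ones in Apoe-/- for 4 members, Hspa8, Hsp90aa1 and Dnajb1 above and Hspa1b below, where 40.7% of all genes did so. In DKO they did so for 0 of the 10, where 42.6% of all genes did. The 4 of 10 in Apoe-/- was thus close to the share of all genes. Median-ratio scaling divides each library by the median ratio of its genes to their mean level, and its lowest factor, 0.890, was that of Apoe-/- untreated replicate 1. With it no member had an unadjusted p under 0.05 by limma in Apoe-/-, beside 5487 genes, and 2 did in DKO, beside 4944. Overlap was not counted on that scale.

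Of the 7 abundant members Hsp90aa1 had the largest difference at oxLDL 60 in Apoe-/- cells, without passing the test. Its levels in Apoe-/- replicates 1, 2 and 3 were 187, 166 and 183 RPKM untreated, 230.0, 173 and 204 RPKM after oxLDL 10 and 245, 205 and 209 RPKM after oxLDL 60. In DKO they were 241, 228 and 185 RPKM untreated, 257, 265 and 200.4 RPKM after oxLDL 10 and 248, 264 and 191 RPKM after oxLDL 60. All 6 animals had more Hsp90aa1 at oxLDL 60 than untreated, and in Apoe-/- the groups did not overlap. The log2 change at oxLDL 60 was 0.29 in Apoe-/- (95% interval -0.0014 to 0.59, limma adjusted p = 0.126) and 0.10 in DKO (-0.20 to 0.39, adjusted p = 0.670). With the animal as a block the Apoe-/- change had a limma adjusted p of 0.0010, at a size still below the 1.4-fold limit. With median-ratio scaling, or without Apoe-/- untreated replicate 1, neither Hsp90aa1 nor any other member had an unadjusted p under 0.05 by limma there. Of the spread of Hsp90aa1 within genotypes, 67.5% lay between animals, against a median of 24.1% over all genes tested. In both genotypes the Xist-positive animal was the lowest under all 3 conditions.

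Hsph1 had the same tendency as Hsp90aa1 at lower levels. In Apoe-/- replicates 1, 2 and 3 it stood at 12.0, 12.0 and 13.9 RPKM untreated, 15.1, 11.1 and 14.5 RPKM after oxLDL 10 and 15.2, 13.8 and 16.4 RPKM after oxLDL 60. In DKO it stood at 16.4, 13.9 and 14.5 RPKM untreated, 16.7, 15.0 and 15.1 RPKM after oxLDL 10 and 18.9, 15.9 and 15.3 RPKM after oxLDL 60. Each of the 6 animals again had more at oxLDL 60 than untreated, but the groups overlapped in both genotypes. The log2 change at oxLDL 60 was 0.26 in Apoe-/- (0.02 to 0.50, limma adjusted p = 0.0938, 0.0064 with the animal block) and 0.16 in DKO (-0.08 to 0.39, adjusted p = 0.344).

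Hspa8 was the most abundant member and among the flattest. In Apoe-/- replicates 1, 2 and 3 it stood at 885, 877 and 935 RPKM untreated and at 1125, 953 and 1016 RPKM with oxLDL 60, and in DKO at 1053, 1019.9 and 946 RPKM untreated and at 1053, 1055 and 888 RPKM with oxLDL 60. The Apoe-/- groups did not overlap and the DKO groups did. The log2 change was 0.19 in Apoe-/- (-0.01 to 0.40, limma adjusted p = 0.139, 0.0398 with the animal block) and -0.01 in DKO (-0.22 to 0.19, adjusted p = 0.936). Across the 18 libraries, relative to the group means, Hspa8 ran with Hsp90aa1 (Pearson r = 0.93) and Dnaja1 (r = 0.89). These points share animals and the scaling of each library, and the values are a description.

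The J-domain proteins Dnajb1 and Dnaja1 stayed within a narrow range. Dnajb1 lay between 10.9 and 11.1 RPKM in untreated and 11.9 and 12.6 RPKM in oxLDL 60 Apoe-/- cells, and between 11.4 and 12.7 RPKM in untreated and 10.9 and 12.0 RPKM in oxLDL 60 DKO cells. All 3 Apoe-/- animals were higher with oxLDL 60 than untreated and all 3 DKO animals lower. The log2 changes of Dnajb1 were 0.14 in Apoe-/- (-0.0040 to 0.28, limma adjusted p = 0.136) and -0.09 in DKO (-0.23 to 0.06, adjusted p = 0.403), and their difference had a limma adjusted p of 0.507. Dnaja1 lay between 28.1 and 31.2 RPKM in untreated Apoe-/- and 29.5 and 33.8 RPKM in untreated DKO cells. Its log2 change at oxLDL 60 was 0.11 in Apoe-/- (-0.05 to 0.28) and -0.09 in DKO (-0.25 to 0.08), and neither passed the test.

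Hsf1 and Bag3 did not pass the test in any comparison. Hsf1 lay between 7.00 and 9.39 RPKM in all 18 libraries, and its log2 change at oxLDL 60 was -0.06 in Apoe-/- (-0.24 to 0.12, limma adjusted p = 0.642) and -0.16 in DKO (-0.34 to 0.02, adjusted p = 0.181). Bag3 lay between 5.79 and 8.03 RPKM, and its log2 change was 0.08 in Apoe-/- (-0.10 to 0.25, adjusted p = 0.525) and 0.01 in DKO (-0.17 to 0.18, adjusted p = 0.969). Across these 7 abundant members the intervals at oxLDL 60 reached from a fold of 0.847 to 1.51 in Apoe-/- and from 0.789 to 1.31 in DKO. A change of more than 1.51-fold in either direction thus lay outside the interval of each of the 7.

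**Figure D2:**
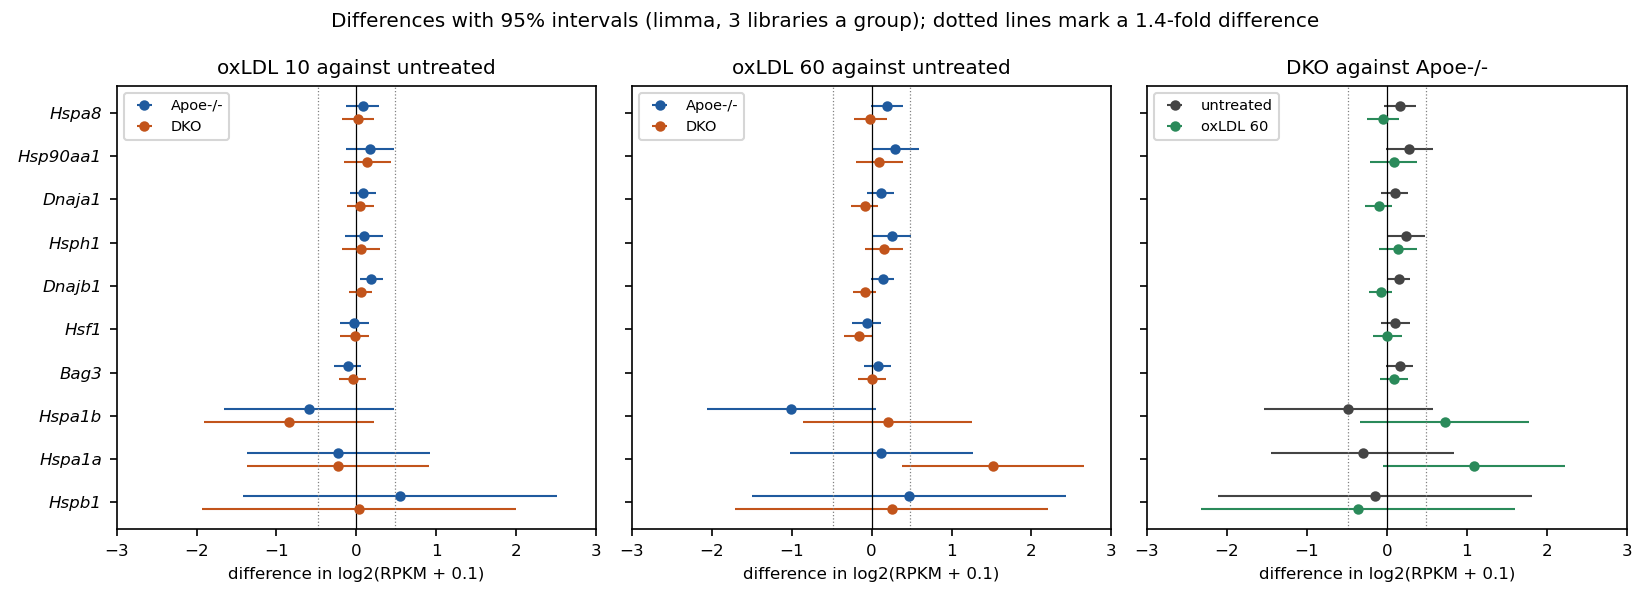
Difference in log2(RPKM + 0.1) for each member (points) with its 95% interval (bars, limma, 3 libraries a group) at oxLDL 10, at oxLDL 60 and between genotypes. Points of the 7 abundant members lie inside the dotted 1.4-fold lines, and Hspa1a in DKO at oxLDL 60 (1.52) lies beyond a line with an interval clear of 0.

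At oxLDL 10 limma called none of the 10 members in Apoe-/- (2.79% of all genes) or in DKO (2.26% of all genes). An unadjusted p under 0.05 was found for 1 and 0 members, beside 2871 and 1692 of the 12838 genes. That 1 member was Dnajb1 in Apoe-/-, at 11.0, 10.9 and 11.1 RPKM untreated and 14.0, 12.1 and 11.6 RPKM after oxLDL 10 in replicates 1, 2 and 3. The log2 change of Dnajb1 was 0.19 (0.04 to 0.33, limma adjusted p = 0.113, 0.0403 with the animal block). Over all alternatives it ranged from 0.11 to 0.24, with a limma adjusted p from 0.0403 to 0.424. Between the 2 amounts none of the 10 members was called in Apoe-/- (6.46% of all genes), and 1, Hspa1a, was called in DKO (5.66% of all genes). In Apoe-/- 1 member, Bag3, had an unadjusted p under 0.05 by limma, beside 3274 genes.

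Hspa1a and Hspa1b, the strictly stress-inducible HSP70 genes, varied most between the libraries of 1 animal, and in a different direction from animal to animal. Hspa1a stood in Apoe-/- replicates 1, 2 and 3 at 0.521, 1.53 and 0.715 RPKM untreated, 0.620, 1.14 and 0.475 RPKM after oxLDL 10 and 1.18, 0.620 and 1.05 RPKM after oxLDL 60. In DKO it stood at 0.383, 0.521 and 1.36 RPKM untreated, 0.554, 0.300 and 0.935 RPKM after oxLDL 10 and 3.54, 3.15 and 0.768 RPKM after oxLDL 60. DKO replicates 1 and 2 were thus higher at oxLDL 60 than any other library, while DKO replicate 3 was lower than its own untreated library. The log2 change at oxLDL 60 in DKO was 1.52 (SE 0.54, 95% interval 0.37 to 2.66, limma adjusted p = 0.0484), and against oxLDL 10 it was 1.75 (SE 0.54, 0.61 to 2.89, adjusted p = 0.0366). In Apoe-/- the change at oxLDL 60 was 0.12 (-1.02 to 1.26, adjusted p = 0.898), and the difference between the genotypes' changes, 1.39 (-0.22 to 3.01), had an adjusted p of 0.532.

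From untreated to oxLDL 60 Hspa1b moved against Hspa1a in Apoe-/- replicates 1 and 3 and in the same direction in the other animals. Hspa1b stood in Apoe-/- replicates 1, 2 and 3 at 1.41, 2.07 and 1.32 RPKM untreated, 0.774, 1.51 and 0.866 RPKM after oxLDL 10 and 0.896, 0.554 and 0.783 RPKM after oxLDL 60. In DKO it stood at 0.786, 0.619 and 2.59 RPKM untreated, 0.451, 0.348 and 1.11 RPKM after oxLDL 10 and 2.22, 1.67 and 0.533 RPKM after oxLDL 60. With oxLDL 10 all 6 animals had less Hspa1b than untreated, and with oxLDL 60 all 3 Apoe-/- animals and DKO replicate 3 had less while DKO replicates 1 and 2 had more. The log2 changes at oxLDL 60 were -1.01 in Apoe-/- (-2.06 to 0.05, limma adjusted p = 0.145) and 0.20 in DKO (-0.86 to 1.26, adjusted p = 0.821), and neither was called. At the annotated lengths the values of the pair corresponded to between 37 and 448 reads per library for Hspa1a and 40 to 302 for Hspa1b, so these differences were not at the floor of detection.

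The 2 Xist-positive animals differed from the other 4 in both genes. Untreated, they had the highest Hspa1a (1.53 and 1.36 RPKM, against 0.383 to 0.715 RPKM) and the highest Hspa1b (2.07 and 2.59 RPKM, against 0.619 to 1.41 RPKM), and at oxLDL 60 they had the lowest of both. At oxLDL 60 Hspa1a was higher than untreated in the other 4 animals, by 2.26-fold and 1.48-fold in Apoe-/- replicates 1 and 3 and by 9.24-fold and 6.03-fold in DKO replicates 1 and 2. It was lower in both Xist-positive animals, at 0.406 and 0.565 of the untreated level. The mean change differed by 2.67 log2 units between the 2 and the 4 animals (exact permutation test, two-sided, p = 0.133, where the smallest p that 2 against 4 animals allow is 0.0667). Xist status (and with it sex), the animal and any difference in handling of these 2 animals cannot be told apart here.

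Without the 6 Xist-positive libraries more members were called, and most counts over all genes rose as well. Between the genotypes they went from 27 to 309 genes untreated, from 11 to 108 at oxLDL 10 and from 16 to 75 at oxLDL 60. For oxLDL 60 against untreated they were 1802 in Apoe-/- and 1514 in DKO, beside 1786 and 1564 with all libraries. The animals left out are those whose Hspa1a was lower at oxLDL 60 than untreated, while it was higher in all others. The p-values of these fits thus describe the animals kept and cannot test the change over all animals. Hspa1a was then 2.65 log2 units higher in DKO at oxLDL 60 than untreated (SE 0.23, limma adjusted p = 7.4e-07) and 0.77 higher in Apoe-/- (SE 0.23, adjusted p = 0.0213), with 2 animals a group. Hspa1b was 1.34 higher in DKO (SE 0.18, adjusted p = 4.8e-05) and 0.64 lower in Apoe-/- (log2 change -0.64, SE 0.18, adjusted p = 0.0141). The difference between the genotypes' changes was 1.99 for Hspa1b (SE 0.25, adjusted p = 0.0134), and Hspa1a did not pass. Against oxLDL 10, Hspa1a at oxLDL 60 was then 2.75 higher in DKO (limma adjusted p = 4.9e-06) and 0.92 higher in Apoe-/- (adjusted p = 0.0158), and Hspa1b 2.03 higher in DKO (adjusted p = 6.6e-06). At oxLDL 10 Hspa1b was called lower than untreated in Apoe-/- (-0.67, limma adjusted p = 0.0368) and in DKO (-0.68, adjusted p = 0.0446). With the 2 copies summed to 1 row, an alternative chosen after the values were seen, the change at oxLDL 60 in DKO was 0.89 with all animals (adjusted p = 0.253) and 2.10 without the Xist-positive ones (adjusted p = 2.9e-07). The call of Hspa1a in DKO at oxLDL 60 was lost without DKO replicate 1 or 2 of the oxLDL 60 group (log2 changes 1.14 and 1.23) and without DKO replicate 1 or 2 of the untreated group (1.19 and 1.37). Over all alternatives, with the summed pair standing in for Hspa1a in some, the limma adjusted p ranged from 2.9e-07 to 0.253. Both ends are values of the summed pair.

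The ratio between the copies was lower at oxLDL 60 than untreated in every animal. The ratio of Hspa1b to Hspa1a RPKM in Apoe-/- replicates 1, 2 and 3 was 2.70, 1.36 and 1.85 untreated, 1.25, 1.32 and 1.82 with oxLDL 10, and 0.762, 0.894 and 0.742 with oxLDL 60. In DKO it was 2.05, 1.19 and 1.91 untreated, 0.813, 1.16 and 1.19 with oxLDL 10, and 0.626, 0.531 and 0.693 with oxLDL 60. All 6 untreated libraries had more Hspa1b than Hspa1a and all 6 oxLDL 60 libraries less. The mean change of the ratio at oxLDL 60 was -1.35 log2 units (SD 0.44, n = 6 animals, lower in 6 of 6). The ratio was chosen after the values were seen, so it is a description with no test, and the part that reads shared between the copies have in it was not tested.

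**Figure D3:**
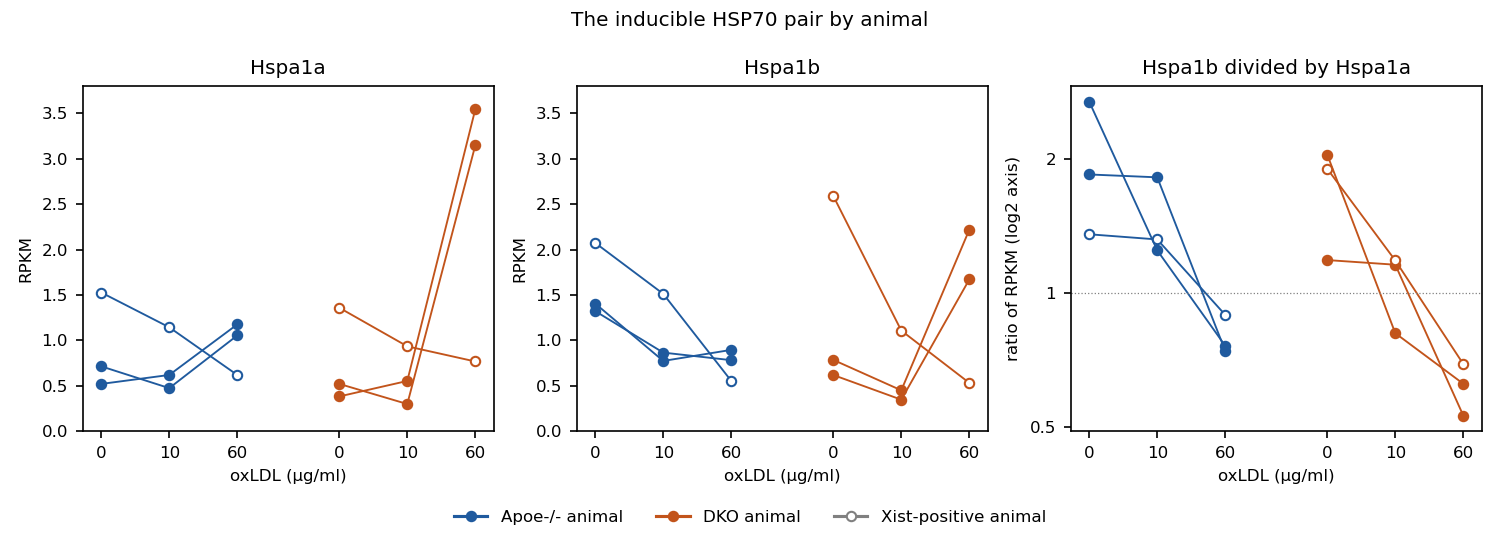
RPKM of Hspa1a and of Hspa1b (linear axes from 0) and their ratio (log2 axis, dotted line at 1) at 0, 10 and 60 µg/ml oxLDL for each animal. The 2 filled DKO lines climb to 3.54 and 3.15 RPKM of Hspa1a, both open lines descend, and the ratio falls below 1 in all 6 animals at 60 µg/ml.

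Relative to the group means the pair ran together, with a Pearson r of 0.92 over 18 libraries, against 0.73 without that step. Only 4.10% of the spread of Hspa1a within genotypes lay between animals, since each animal's libraries moved widely, and 44.2% between amounts of oxLDL, close to the median of 44.1% over all genes tested. The largest share, 51.7% against a median of 22.5%, was left by both, and it holds the differences between the animals' responses. Markers of neutrophils, the other list that differed between animals, summed to 56.5 and 45.1 RPKM in the DKO oxLDL 60 libraries with high Hspa1a and to 31.1 RPKM in the third, but to 79.8 and 67.5 RPKM in the untreated libraries of the same 2 animals, where Hspa1a was low. Their part in the level of the pair was not tested.

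Hspb1 varied between animals far more than between treatments. In Apoe-/- replicates 1, 2 and 3 it stood at 1.19, 0.0512 and 0.498 RPKM untreated, 1.51, 0.0758 and 1.17 RPKM after oxLDL 10 and 1.80, 0.0491 and 0.984 RPKM after oxLDL 60. In DKO it stood at 0.293, 0.495 and 0.266 RPKM untreated, 0.330, 0.565 and 0.218 RPKM after oxLDL 10 and 0.418, 0.8996 and 0.178 RPKM after oxLDL 60. These values corresponded to whole reads, 2, 3 and 2 in Apoe-/- replicate 2, at or under the floor of 3, and 8 to 88 elsewhere. Of the spread of Hspb1 within genotypes 93.9% lay between animals, more than in 99.3% of the genes tested, and 2.89% between amounts of oxLDL. The log2 change at oxLDL 60 was 0.46 in Apoe-/- (-1.50 to 2.43, limma adjusted p = 0.756) and 0.25 in DKO (-1.71 to 2.21, adjusted p = 0.881). These intervals include the spread between animals and are too wide to place a change of several fold. Within animals, Hspb1 at oxLDL 60 stood at 1.51, 0.959 and 1.98 times the untreated level in Apoe-/- replicates 1, 2 and 3. In DKO it stood at 1.43, 1.82 and 0.666 times that level, lower in the Xist-positive replicate 3.

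Markers of stromal cells differed between animals as Hspb1 did. The list held Col1a1, Col1a2, Dcn and Pdgfra, of which all 4 were in the table and 3 passed the filter on low values, and none was at 0 in all libraries. Their summed level was 11.8 to 12.5 RPKM in Apoe-/- replicate 1, 6.43 to 7.68 RPKM in replicate 3 and 0.483 to 0.642 RPKM in replicate 2. In DKO it was 3.08 to 3.40 RPKM in replicate 1, 3.13 to 4.66 RPKM in replicate 2 and 0.710 to 0.944 RPKM in replicate 3. On log2 scales Hspb1 and this sum had a Pearson r of 0.93 over the 18 libraries and 0.95 relative to group means. Within animals the 2 did not run together with oxLDL. The sum was lower at oxLDL 60 than untreated in every animal, from 11.83 to 11.79 RPKM in Apoe-/- replicate 1 to 4.66 to 3.13 RPKM in DKO replicate 2. Hspb1 was higher in Apoe-/- replicates 1 and 3 and DKO replicates 1 and 2, and lower in the others. The 5 genes whose profile was most like that of Hspb1, sought after its values were seen, were Ccn2 (r = 0.97), Tagln (0.97), Col5a2 (0.96), Acta2 (0.96) and Sparc (0.96), which encode matrix proteins and proteins of contractile cells. The 18 points share 6 animals, and fewer cells of a type and less RNA per cell cannot be told apart in such samples. The part of stromal cells in the level of Hspb1 was not tested. For the other 9 members the r with the same sum lay between -0.23 (Hspa1a) and 0.55 (Hspa8).

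**Figure D4:**
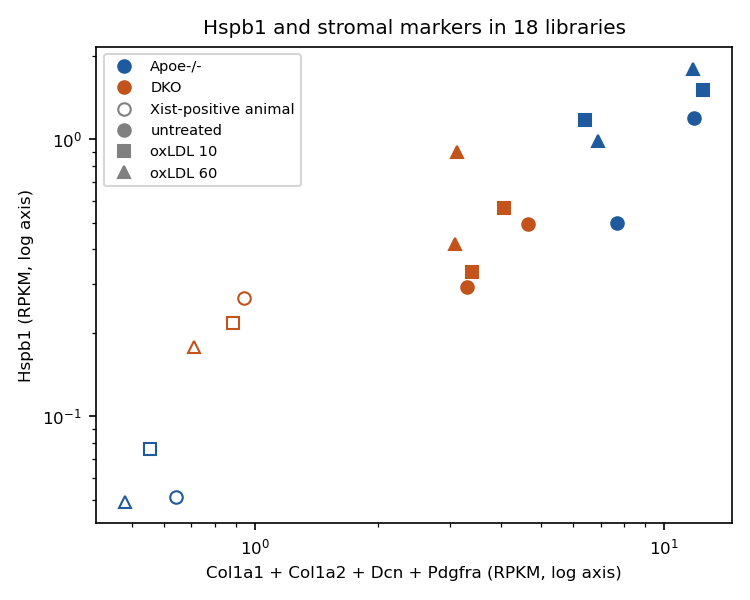
Hspb1 (RPKM, log axis) against the summed stromal markers (RPKM, log axis) in each of the 18 libraries, by genotype (colour), treatment (shape) and Xist status (open symbols). Libraries of 1 animal cluster together, and Apoe-/- replicate 2 has the lowest of both.

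Between the genotypes none of the 10 members was called in untreated cells (0.21% of all genes), with oxLDL 10 (0.0857%) or with oxLDL 60 (0.125%). By limma 2, 1 and 0 members had an unadjusted p under 0.05, beside 2225, 1252 and 1011 of the 12838 genes. In untreated cells 4 members, Hspa8, Hsph1, Dnajb1 and Bag3, were higher in all 3 DKO than in all 3 Apoe-/- libraries, where 19.6% of all genes did not overlap in either direction. The log2 differences were 0.16 for Hspa8 (-0.04 to 0.36), 0.24 for Hsph1 (0.0035 to 0.48), 0.15 for Dnajb1 (0.0067 to 0.29) and 0.16 for Bag3 (-0.01 to 0.33), with limma adjusted p from 0.275 to 0.389. The median over all genes tested was 0.09, and that of the members 0.13. Hsp90aa1 was higher by 0.28 (-0.01 to 0.58, adjusted p = 0.312), and DKO replicate 3 at 185 RPKM lay within the Apoe-/- values. With median-ratio scaling, which divides each library by the median ratio of its genes to their mean level, the median over all genes tested went from 0.09 to -0.0072 and that of the members to 0.03, no member had an unadjusted p under 0.05 by limma, and the differences of these 4 were 0.06 for Hspa8, 0.14 for Hsph1, 0.05 for Dnajb1 and 0.06 for Bag3. Neutrophil markers (5 of 5 in the table, 4 past the filter, none at 0 in all libraries) summed to 35.0 to 79.8 RPKM in untreated DKO and to 28.2 to 44.8 RPKM in untreated Apoe-/- cells, and their part in these differences was not tested.

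With oxLDL 60 the differences between the genotypes lay between -0.10 and 0.14 for the 7 abundant members. They were 1.09 for Hspa1a (-0.05 to 2.23, limma adjusted p = 0.637) and 0.72 for Hspa1b (-0.33 to 1.78, adjusted p = 0.740). Without the Xist-positive libraries, with 2 animals a group, limma called both higher in DKO at oxLDL 60, Hspa1a by 1.502 (adjusted p = 0.0067) and Hspa1b by 1.11 (adjusted p = 0.0087). Hspa1b was then called lower in DKO untreated (-0.87, limma adjusted p = 0.0145) and at oxLDL 10 (-0.89, adjusted p = 0.0282). Over all genes these fits called 309 untreated, 108 at oxLDL 10 and 75 at oxLDL 60, of 12724 tested. These fits leave out DKO replicate 3, whose values ran against those of the other DKO animals, and cannot test the difference over all animals.

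The difference between the genotypes' responses was called by limma for none of the 10 members at oxLDL 10 (0% of all genes, of which 246 had an unadjusted p under 0.05, and 0 of the members) or at oxLDL 60 (0.0156% of all genes, with 1 member under 0.05 beside 1256 genes). With the animal block 3 members were under 0.05 at oxLDL 60, beside 2184 genes, and none was called. At oxLDL 60 the response of all 7 abundant members was lower in DKO than in Apoe-/-, by 0.07 to 0.22 on the log2 scale, beside a median of -0.11 over all genes tested, but with median-ratio scaling that median was 0.01 and the response of 3 of the 7, Bag3 (0.06), Hsf1 (0.03) and Hsph1 (0.03), was the higher one in DKO. The differences of Hspa1a (1.39) and Hspa1b (1.21) lay the other way, with intervals that spanned 0. The intervals of 6 of the 7 spanned 0, the exception being Dnajb1 (-0.22, -0.43 to -0.02, limma adjusted p = 0.507).

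The other genes of the pathway were read from lists of 82 further chaperone genes and 8 stress genes outside the chaperones. Of the 75 chaperone genes tested, 4 were called higher and 1 lower at oxLDL 60 in Apoe-/-, and 2 higher and 1 lower in DKO, beside 13.9% and 12.2% of all genes called in either direction. None was called among 5 HSF regulators, 5 other HSP70 and HSP110 genes, 12 HSP90 and co-chaperone genes, 8 subunits of the chaperonin TRiC and 9 mitochondrial chaperones. The medians of these lists lay between -0.09 and 0.22 in Apoe-/- and between -0.22 and 0.05 in DKO, beside 0.06 and -0.06 over all genes tested.

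The J-domain gene Dnajb4 rose in both genotypes. It went from 5.26, 5.78 and 6.16 RPKM untreated to 11.6, 9.94 and 10.3 RPKM with oxLDL 60 in Apoe-/- replicates 1, 2 and 3, and from 7.44, 7.28 and 6.74 RPKM to 13.1, 12.1 and 10.6 RPKM in DKO. The groups did not overlap, and the log2 change was 0.88 in Apoe-/- (SE 0.09) and 0.73 in DKO (SE 0.09), called by limma with all 16 alternatives in each genotype. In Apoe-/- the neuronal-enriched J-domain gene Dnajb2 rose by 0.56 (SE 0.12, limma adjusted p = 0.0018), the HSP70 co-chaperone gene Bag2 by 0.63 (SE 0.18, adjusted p = 0.0125) and the endoplasmic reticulum gene Dnajb9 by 0.54 (SE 0.12, adjusted p = 0.0033). Each of these 3 was called with 13 or 14 of 16 alternatives. Without Apoe-/- oxLDL 60 replicate 1 the calls of Dnajb2 (0.48) and Bag2 (0.48) were lost, and that of Bag2 also without untreated replicate 2 (0.48). Both were also lost with a pseudocount of 1 (0.39 for Dnajb2 and 0.47 for Bag2), which shrinks the changes of low genes. The call of Dnajb9 was lost without oxLDL 60 replicate 2 (0.43), without untreated replicate 1 (0.46) and with median-ratio scaling (0.47). Dnajb3 was called lower in Apoe-/- and higher in DKO, and Hspb9 lower in DKO. These 2 genes stood at no more than 0.138 and 0.488 RPKM, with Dnajb3 listed at 0 in all 3 Apoe-/- oxLDL 60 libraries.

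Of the 8 stress genes outside the chaperones 4 rose at oxLDL 60 in each genotype, Hmox1, Sqstm1, Zfand2a and Gabarapl1, beside the 13.9% and 12.2% of all genes called. Hmox1, which degrades heme, went from 514, 582 and 472 RPKM untreated to 2821, 2133 and 2557 RPKM in Apoe-/- replicates 1, 2 and 3, and from 613, 568 and 504 RPKM to 2931, 2351 and 2160.2 RPKM in DKO. Its log2 change was 2.26 in Apoe-/- (1.94 to 2.57) and 2.14 in DKO (1.82 to 2.45). Sqstm1, the autophagy receptor that works beside BAG3, rose by 1.03 in Apoe-/- (0.75 to 1.32) and 0.97 in DKO (0.68 to 1.26). Zfand2a, a proteasome-associated gene known as a target of HSF1 in arsenite stress, rose by 1.16 (SE 0.11) and 0.91 (SE 0.11), and Gabarapl1, of the autophagosome, by 0.78 (SE 0.11) and 0.61 (SE 0.11). All 4 stayed called by limma with all 16 alternatives in both genotypes. Pairs of heat shock element units stood in the promoter windows of Zfand2a and of Dnajb4, at 1 of its 2 listed starts, and not in those of Sqstm1, Gabarapl1, Dnajb2, Bag2 or Dnajb9.

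**Figure D5:**
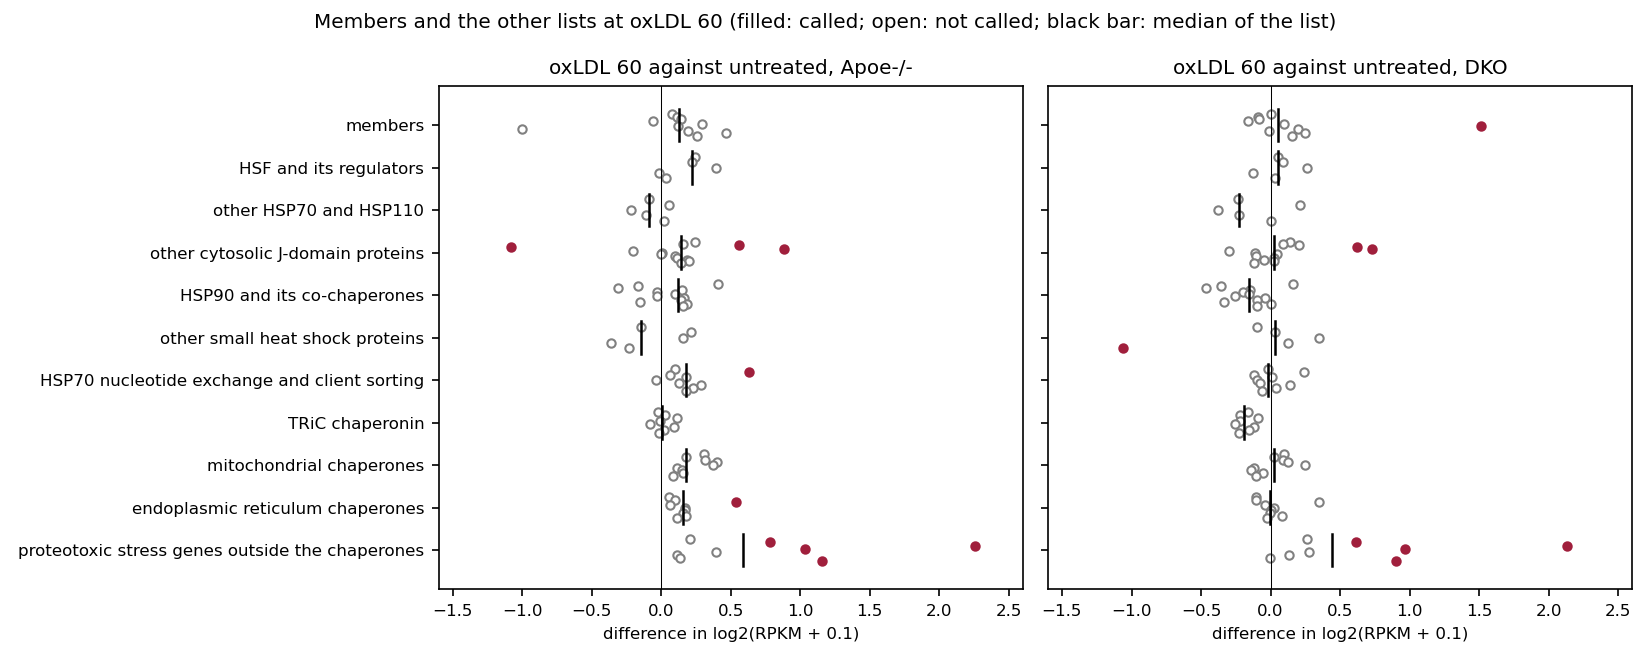
Difference in log2(RPKM + 0.1) at oxLDL 60 for the 10 members and for each gene tested of the 10 lists, in Apoe-/- (left) and DKO (right), with filled points for called genes and a black bar for each list's median. Among the members Hspa1b in Apoe-/- (-1.01) and Hspa1a in DKO (1.52) lie farthest from 0, and the stress genes outside the chaperones reach 2.26 and 2.14.

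The mean profile of the 10 members, each scaled to its own spread, was most like those of Cap1 (Pearson r = 0.90), Lsg1 (0.90), Cyb5r1 (0.90), Emc1 (0.89) and Got2 (0.89) among other genes with at least 1 RPKM, over 18 libraries. Relative to the group means the nearest were Lonp1 (0.94), Stip1 (0.94), Golim4 (0.93), Pip4k2b (0.93) and Hdgf (0.93). Stip1 encodes the adaptor that joins HSP70 to HSP90, and Lonp1 a mitochondrial protease. These values describe likeness in 18 libraries that share 6 animals.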

How the data were processed

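The authors aligned reads to mm10 with STAR, per the submitters' processing notes, and deposited 1 table of RPKM for 18668 symbols in 18 libraries. The annotation and the counting of shared reads are not given in the sources used here. Groups and replicates came from the labels, which call the samples biological replicates. Depth was recovered from the RPKM steps with GENCODE M21 lengths, and floors of 3 reads cover counting error only. Values were taken as log2(RPKM + 0.1), which understates changes of low genes. Genes with at least 0.1 RPKM in 3 libraries (12838) were fitted with limma 3.58.1 in R 4.3.3, using 1 mean per group (6) over all 18 libraries and eBayes with a trend. P-values were adjusted by Benjamini-Hochberg over all genes within each of 11 comparisons, and a gene was called at adjusted p under 0.05 and at least 1.4-fold. The fit was tested on simulated data. Same-numbered libraries of 1 genotype deviated together from their group means in each of 18 pairs (r from 0.18 to 0.69, median 0.41, other numbers median -0.35), so the number was used as an animal block in an alternative. The members, the lists and the rule for names (every member, and up to 4 called genes of each list by mean change at oxLDL 60) were chosen with earlier results of these data known. The 24 symbols that had become dates were kept. Sequences are from RefSeq, and plots used matplotlib 3.10.9.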

Additional observations from a re-analysis of the deposited data

Results flagged for a closer look

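Dnajb1 went in opposite directions in the genotypes at oxLDL 60. It was higher than untreated in all 3 Apoe-/- animals and lower in all 3 DKO animals, by at most 0.20 log2 units in any animal. The difference between the responses was -0.22 (SE 0.10, limma adjusted p = 0.507), so it did not pass over all genes. The median over all genes tested went the same ways, 0.06 in Apoe-/-, -0.06 in DKO and -0.11 for the difference between the responses. With median-ratio scaling the difference of Dnajb1 was -0.093 (limma adjusted p = 1.00), and over all alternatives it ranged from -0.27 to -0.093.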

How the results depend on the processing

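Leaving out the 6 Xist-positive libraries changed most counts of called members. They became 1 at oxLDL 10 in Apoe-/-, 1 at oxLDL 10 in DKO, 2 at oxLDL 60 in Apoe-/-, 2 in DKO, 1 and 2 for oxLDL 60 against oxLDL 10 in Apoe-/- and DKO, 1, 1 and 2 between genotypes untreated, at oxLDL 10 and at oxLDL 60, and 1 for the interaction at oxLDL 60. The members concerned were Hspa1a and Hspa1b. Most counts over all genes rose as well, between the genotypes from 27, 11 and 16 to 309, 108 and 75. In DKO the count fell from 1 to 0 for oxLDL 60 against untreated with a pseudocount of 0.01, with no filter, with only the groups compared, and with the pair summed, with or without the replicate block. For oxLDL 60 against oxLDL 10 in DKO it fell to 0 with no filter, with only the groups compared and with the pair summed. With only the groups compared it rose to 1 (Hspa1b) at oxLDL 60 in Apoe-/-. With the pair summed and the Xist-positive libraries left out, 1 was called between genotypes untreated, 1 at oxLDL 60 and 1 for the interaction at oxLDL 60. Leaving out 1 library at a time, the count ranged from 0 to 1 for oxLDL 60 against untreated in DKO and from 0 to 2 against oxLDL 10. Both fell to 0 without DKO oxLDL 60 replicate 1 or 2, the first also without DKO untreated replicate 1 or 2 and the second also without DKO oxLDL 10 replicate 1 or 2, and the second reached 2 without DKO oxLDL 60 replicate 3. With the animal as replicate block the counts were 1, 1 and otherwise 0, as without it, and the block changed no call of a member while the pair was kept apart. With the pair summed, the block raised the count for oxLDL 60 against oxLDL 10 in DKO from 0 to 1. For Hspa1a at oxLDL 60 in Apoe-/- the sign reversed where the summed pair stood in for it. The change of the sum was -0.53, alone or with the replicate block, and -0.021 when the Xist-positive libraries were also left out. Hspa1a itself reversed without Apoe-/- replicate 1 of the untreated or the oxLDL 60 group, with a range of -0.18 to 0.52 over the libraries left out. Against oxLDL 10 in Apoe-/- the sign reversed with the sum as well, at -0.049, alone or with the block. Hspa1b at oxLDL 60 in DKO reversed without DKO oxLDL 60 replicate 1 or untreated replicate 1 or 2, with a range of -0.18 to 0.78 over the libraries left out. The causes were not tested. Of all 110 member changes 46 took the other sign under at least 1 alternative, and the interval of each of the 46 spanned 0.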
